A study of Mus musculus with 2 samples.

Results

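Smooth muscle and mural cells are the contractile and vessel-coating cells of the embryo, and they were picked out here from 2 single-cell libraries of C57BL/6 mouse embryos, 1 at E11.5 and 1 at E10.5. A barcode was kept with at least 2000 unique molecular identifiers (UMIs, each standing for 1 captured RNA molecule), at least 500 genes and at most 10% mitochondrial UMIs. It was selected if it held at least 10 UMIs each of Acta2 and Tagln and at least 1 of Cnn1, none of Myf5, Myod1, Myog or Cdh5, and at most 2 of Upk3b. This left 723 cells of 16572 kept barcodes and 23285 barcodes in all. The E11.5 library gave 416 cells of 8907 kept barcodes (4.67%, exact 95% interval 4.24 to 5.13) and the E10.5 library gave 307 of 7665 (4.01%, 3.58 to 4.47), a ratio of 1.17 (1.00 to 1.36). The selection rests on the measured UMIs of these genes, so their levels are a description and carry no test.

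Each library was labelled as dorsal aorta and fetal liver from embryos of that age. The labels name no treatment, no altered allele and no number of embryos, and both libraries held the same tissues, dissociated with collagenase/dispase and trypsin and run on the 10x 3′ v3.1 chemistry. The series asks about the precursors of haematopoietic stem cells, which arise beside the wall of the dorsal aorta. With a single library at each age, the ages could not be tested against each other. Every interval below covers counting error only, and stage, dissection and library cannot be told apart. Cells of 1 library are not replicates.

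Smooth muscle cells contract through an actomyosin apparatus in which smooth muscle actins slide along smooth muscle myosin, under the control of calcium, calmodulin and myosin light chain kinase. In large arteries they also make the elastic and collagen fibres of the wall, while pericytes coat small vessels and depend on PDGF and Notch signals from the endothelium. In the embryo both arise from several mesodermal sources, and serum response factor with its partner myocardin switches on many contractile genes through the CArG box, a short DNA motif.

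The libraries held 159619785 UMIs at E11.5 and 151474708 at E10.5 over all barcodes. Selected cells had a median of 17250 UMIs at E11.5 and 18508 at E10.5, against 13971 and 16845.5 in the other kept barcodes of the same libraries. The 2 libraries shared 37 barcode sequences, of which 1 was a selected cell at E11.5 and 1 another at E10.5, and no selected cell shared its barcode with one in the other library. No doublet caller was run. At least 3 UMIs of a marker set of endothelium, leukocytes, hepatoblasts, epithelium or red cells were present in 48 selected cells at E11.5 (11.54%) and in 10 at E10.5 (3.26%), with median depths of 22916 and 41433 UMIs. Of these, 37 cells at E11.5 and 4 at E10.5 carried hepatoblast UMIs, and 14 and 2 carried red cell UMIs. Their part in the results below was not tested beyond the values given without them.

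The 4 markers given for these cells were all present, 3 of them by the selection itself. Their summed level was 10959 CPM (UMIs of a gene per 1000000 UMIs outside haemoglobin and mitochondrial genes) at E11.5 and 13763 at E10.5, against 243 and 313 CPM in the other kept barcodes. Myh11, the smooth muscle myosin heavy chain, was not part of the selection and had 289 CPM (exact 95% interval 277 to 301) at E11.5 and 64.1 CPM (57.9 to 70.7) at E10.5, against 3.76 and 0.646 CPM in the other barcodes. It was seen in 70.9% of the E11.5 cells and 39.7% of the E10.5 cells, and in 53.9% and 19.3% once each cell was thinned to 5000 UMIs, which left out 10 cells at E11.5 and 6 at E10.5. In red cells of the same libraries, which should lack the gene, 1.09% and 0.873% held a UMI at median depths of 18183.5 and 32265. The 12 heart muscle markers summed to 69.7 CPM at E11.5 and 63.4 CPM at E10.5, against 76.5 and 162 CPM in the other barcodes. Most of this was the troponin gene Tnni1, at 49.6 and 36.8 CPM. Of the 12, 1 had no UMI at E11.5 and 2 had none at E10.5. Nkx2-5 had 2 UMIs at E11.5 and none at E10.5, and Nppa had none in either library. Other heart markers were present, and 3 cells at E11.5 and 5 at E10.5 held at least 3 UMIs over Myl7, Nkx2-5 and Tnnt2. The 9 endothelial markers summed to 54.5 CPM at E11.5 and 50.7 CPM at E10.5, against 332 and 408 CPM in the other barcodes, with Egfl7 at 22.1 and 22.3 CPM the highest in both. Kdr, a VEGF receptor, had 39 UMIs at E11.5 and 16 at E10.5, Pecam1 had 3 and 5, and Cdh5 had none by the rule. The leukocyte marker Ptprc had 0 and 2 UMIs. Higd1b, a marker of mature brain pericytes, had no UMI in either library, which allows at most 0.380 CPM at E11.5 and 0.484 CPM at E10.5.

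The rule drew a line through graded counts. In the step from Acta2 alone to Acta2 with Tagln, 810 barcodes at E11.5 became 580, and 582 at E10.5 became 482. The 43 E11.5 cells whose lower count of Acta2 and Tagln was 10 to 14 had 35.3 CPM of Myh11, and the 60 otherwise alike barcodes with a lower count of 5 to 9 had 13.4 CPM. At E10.5 the 20 cells just inside had 6.14 CPM and the 24 just outside had 12.2 CPM, from 2 and 6 UMIs of Myh11.

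The muscle actin genes and the light chain gene Myl9 are classical targets of serum response factor. The RefSeq promoters of Actc1, Acta2, Myl9 and the cytoplasmic actin gene Actg1 are shown here (build GRCm38.p6), while that of Acta1 is not printed. Each line holds the 250 bases before the start that RefSeq annotates, 5′ to 3′ on the gene's strand. For Actc1 and Acta2 this start lies inside the gene bounds given further below, so distances hold for the RefSeq start alone. Capitals mark a CArG box with no mismatch, searched on both strands and as the only motif.
Actc1, chr2:114052876-114053125, minus strand: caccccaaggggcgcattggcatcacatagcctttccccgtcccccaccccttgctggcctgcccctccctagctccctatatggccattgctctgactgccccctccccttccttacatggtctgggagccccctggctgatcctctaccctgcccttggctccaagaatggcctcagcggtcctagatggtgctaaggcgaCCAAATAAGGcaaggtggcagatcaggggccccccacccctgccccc
Actg1, chr11:120348496-120348745, minus strand: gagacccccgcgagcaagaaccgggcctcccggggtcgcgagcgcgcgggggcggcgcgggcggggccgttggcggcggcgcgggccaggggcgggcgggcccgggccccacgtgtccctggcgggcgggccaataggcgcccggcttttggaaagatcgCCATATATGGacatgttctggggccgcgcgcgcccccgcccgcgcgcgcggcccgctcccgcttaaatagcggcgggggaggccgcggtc
Myl9, chr2:156775214-156775463, plus strand: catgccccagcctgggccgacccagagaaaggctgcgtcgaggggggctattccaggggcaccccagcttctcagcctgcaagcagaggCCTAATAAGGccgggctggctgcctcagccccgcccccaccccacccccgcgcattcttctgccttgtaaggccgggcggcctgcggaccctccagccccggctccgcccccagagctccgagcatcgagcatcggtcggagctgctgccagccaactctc
Acta2, chr19:34255374-34255623, minus strand: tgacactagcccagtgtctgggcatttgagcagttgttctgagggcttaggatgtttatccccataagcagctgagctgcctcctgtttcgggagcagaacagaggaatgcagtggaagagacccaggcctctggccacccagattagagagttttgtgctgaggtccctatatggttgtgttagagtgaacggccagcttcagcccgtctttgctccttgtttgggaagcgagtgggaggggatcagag
A CArG box began 47 bases before the start of Actc1, 90 before that of Actg1 and 161 before that of Myl9, while the Acta2 window held none without a mismatch. Over the full 300-base windows, 535 of 32851 held one (1.63%). Counted by gene, as in the lists that follow, 488 of 27025 had one in any window (1.81%). Of the contractile genes listed here, 23 of 28 had a window and 4 of those held the motif (Myl9, Myl6, Cnn2 and Vcl), and of the actin genes 3 of 4 did (Actc1, Acta1 and Actg1). A match of letters is a description of these windows and says nothing of binding in these cells.

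The muscle actin genes differed between the stages, and in opposite directions. Acta2, the vascular smooth muscle actin (chromosome 19, 34241090 to 34255590), had 6500 CPM at E11.5 and 7447 CPM at E10.5. Actg2, the enteric smooth muscle actin, had 932 CPM (83.4% of cells) at E11.5 and 341 CPM (62.5%) at E10.5, a log2 ratio of 1.45 (1.38 to 1.52). Actc1, the cardiac actin gene (chromosome 2, 114047282 to 114053548), was lower at E11.5, with 583 CPM at E11.5 and 2949 CPM at E10.5, a log2 ratio of -2.34 (-2.39 to -2.29). Acta1, the skeletal actin gene, had 116 CPM at E11.5 and 65.2 CPM at E10.5, a log2 ratio of 0.83 (0.66 to 1.00) that stayed under 2-fold. UMIs count molecules at their 3′ ends, so levels of different genes are set side by side here without division by length. Of the UMIs of these 4 muscle actins, Actc1 made up 7.17% at E11.5 and 27.3% at E10.5, Actg2 11.47% and 3.16%, and Acta2 79.9% and 68.9%. Acta2 is a gene of the selection and most of this total, so the shares depend on the rule. The cytoplasmic actins Actb and Actg1 were lower at E11.5 as well, at 9117 and 5349 CPM against 13729 and 8383 CPM at E10.5.

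**Figure D1:**
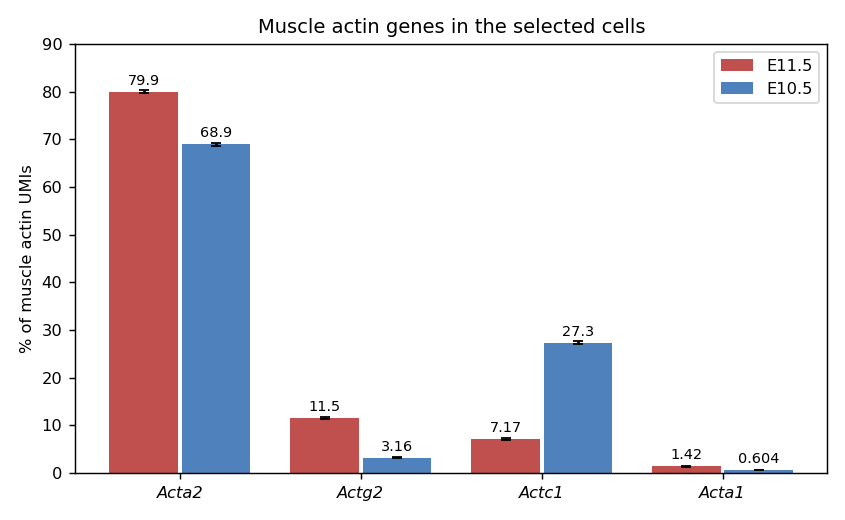
Share of the UMIs of 4 muscle actin genes held by each gene (y axis, % of muscle actin UMIs) in the selected cells of the E11.5 library (left bar) and the E10.5 library (right bar), with exact 95% counting intervals. Actc1 held 7.17% at E11.5 and 27.3% at E10.5, while Actg2 held 11.47% and 3.16%. The total includes Acta2, a gene of the selection.

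Actc1 differed in the share of cells as well as in level. An Actc1 UMI was found in 47.1% of the E11.5 cells and 94.1% of the E10.5 cells, with medians of 0 and 40 UMIs per cell. Thinned to 5000 UMIs the shares were 36.5% and 88.7%, against 4.28% and 4.52% in red cells. The 42 E11.5 cells with the most Actc1 held 75.6% of its UMIs, and the 31 highest E10.5 cells held 34.6%. In thinned cells, 33.5% at E11.5 and 41.5% at E10.5 held UMIs of both Actc1 and Actg2. Cells with Actc1 and no Actg2 were 2.96% at E11.5 and 47.2% at E10.5, and cells with Actg2 and no Actc1 were 34.5% and 2.33%. The other kept barcodes also held less Actc1 at E11.5, with 17.4 CPM there and 159 CPM at E10.5.

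**Figure D2:**
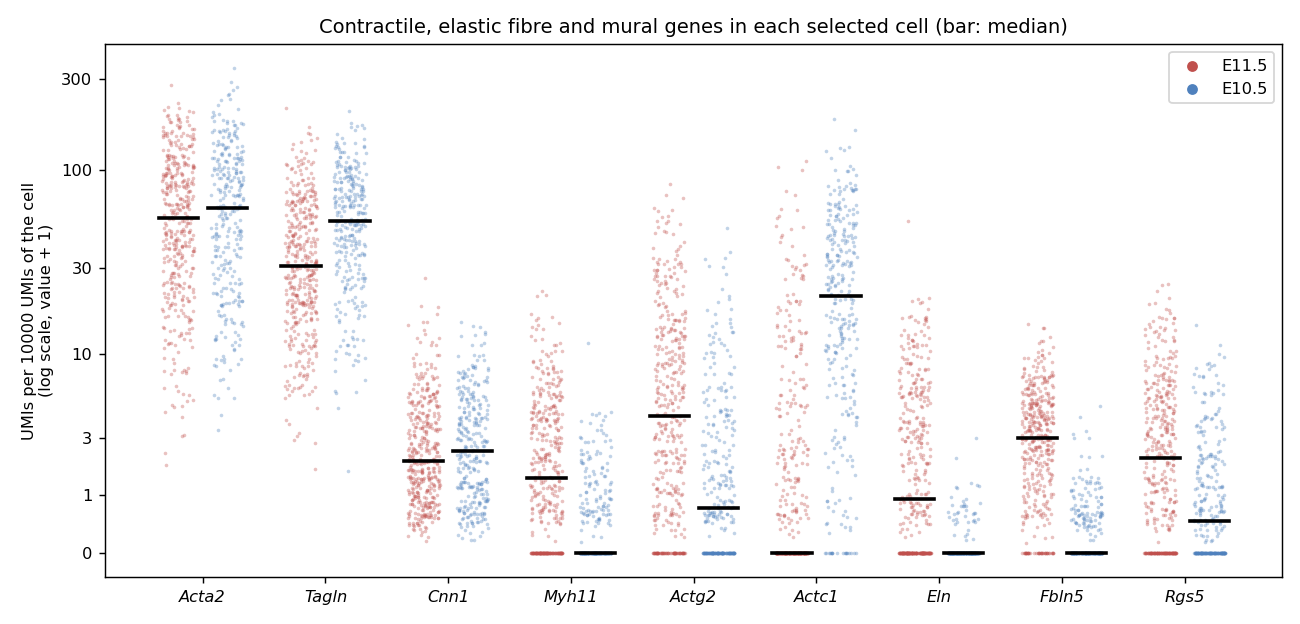
UMIs per 10000 UMIs of the cell (y axis, log scale of the value plus 1) for 9 genes in each selected cell, with the 416 cells of E11.5 to the left of the 307 cells of E10.5 for each gene and a bar at the median. Median Actc1 was 0 at E11.5 and 20.997 at E10.5, while median Actg2 was 4.17 and 0.708 and median Fbln5 was 3.005 and 0.

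Across all genes with at least 50 UMIs in both libraries together, 10796 were measured in the selected cells. A gene was counted as past 2-fold when its ratio exceeded 2 and its counting interval excluded equality. This held for 580 genes higher at E11.5 (5.37%) and for 280 lower at E11.5 (2.59%), and the median log2 ratio of all 10796 was 0.05. Without regard to size, 5875 genes (54.4%) were higher at E11.5. The shares 5.37%, 2.59% and 54.4% are the background for the gene lists below. The selection genes are left out of the counts.

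Beyond the actins, the contractile genes split. Of 24 measured, 6 were past 2-fold higher at E11.5 and 2 lower, and their median log2 ratio was 0.25, against 0.13 in the other barcodes. Myh11 had a log2 ratio of 2.17 (2.02 to 2.33), Tpm2, the beta-tropomyosin, had 818 CPM at E11.5 and 393 at E10.5, and Mustn1 had 11.53 and 1.13 CPM. Myosin light chain kinase, Mylk, had 116 CPM at E11.5 and 68.3 at E10.5, a log2 ratio of 0.76 (0.60 to 0.93) that stayed under 2-fold. The abundant Myl9 was slightly lower at E11.5, with 1412 and 1885 CPM. Des, the muscle intermediate filament desmin, had 24.5 CPM in 24.5% of the cells at E11.5 and 118 CPM in 77.2% at E10.5, a log2 ratio of -2.28. Ppp1r14a, an inhibitor of myosin phosphatase, had 48.0 and 160 CPM. The myosin gene and the desmin gene thus pointed opposite ways. In the other barcodes the log2 ratios of Myh11 and Des were 2.54 and -1.41, and that of Acta1 was -4.33.

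Vessel-coating genes were mostly higher at E11.5. Of 18 pericyte and mural genes measured, 15 were higher and 6 past 2-fold, with 1 past 2-fold lower and a median log2 ratio of 0.91, against 0.70 in the other barcodes. Rgs5, a regulator of G protein signalling that marks pericytes, had 328 CPM (73.3% of cells) at E11.5 and 142 CPM (58.6%) at E10.5, a log2 ratio of 1.21 (1.10 to 1.32). Cspg4, the NG2 proteoglycan of pericytes, had 79.0 and 22.4 CPM. Rgs4 had 21.04 CPM at E11.5 and 2.91 CPM at E10.5. Both subunits of the nitric oxide receptor guanylate cyclase were higher, with 56.7 and 21.8 CPM of Gucy1a1 and 61.7 and 29.7 CPM of Gucy1b1. Pdgfrb, the receptor through which endothelial PDGF recruits mural cells, had 120 CPM at E11.5 and 65.0 at E10.5, under 2-fold (log2 0.89). Vtn, which encodes vitronectin, was lower at E11.5 with 1.52 CPM in 12 cells at E11.5 and 16.9 CPM in 40 cells at E10.5.

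Elastic fibre genes were mostly higher at E11.5. Of 16 measured, 14 were higher at E11.5 and 8 past 2-fold, none was past 2-fold lower, and the median log2 ratio was 1.11, against 0.91 in the other barcodes. Eln, tropoelastin, the core of the elastic fibre, had 320 CPM (308 to 333) at E11.5 and 11.1 CPM (8.66 to 14.1) at E10.5, a log2 ratio of 4.85 (4.50 to 5.21). It was in 61.1% of the E11.5 cells and 13.7% of the E10.5 cells, or 46.8% and 4.32% after thinning, with 0.987% and 0% of thinned red cells. Fbln5, which brings tropoelastin to the fibre, had 332 and 32.1 CPM, and Lox, which crosslinks it, had 26.2 and 3.55 CPM. Fbn1, the main microfibril protein, had 189 CPM at E11.5 and 57.8 CPM at E10.5, while Fbn2, its embryonic relative, had 219 and 194 CPM. Ltbp4, a latent TGF-beta binding protein of the fibre, had 25.9 and 5.49 CPM. Mgp, the matrix Gla protein that keeps arteries free of calcium, had 194 CPM at E11.5 and 9.20 CPM at E10.5. In the other barcodes Eln and Mgp were also higher at E11.5, by log2 ratios of 2.79 and 2.01, from levels of 15.7 against 2.27 CPM and 40.3 against 10.0 CPM.

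Collagen genes were uneven. Of 16 measured, 6 were past 2-fold higher at E11.5 and none lower, with a median log2 ratio of 0.59, against 1.01 in the other barcodes. Col12a1, a collagen that associates with fibrils, had 505 CPM at E11.5 and 79.4 CPM at E10.5, Col8a1, a short-chain collagen of vessel walls, had 55.4 and 5.16 CPM, and Col14a1 had 29.3 and 3.07 CPM. The fibril collagens differed among themselves: Col1a2 had 986 CPM at E11.5 and 423 at E10.5, while Col3a1 had 941 and 1070 CPM. Of 19 basement membrane and integrin genes, 4 were past 2-fold higher and 1 lower. Lama5 had 74 UMIs at E11.5 and 3 at E10.5, Lama4 34.1 and 11.1 CPM, and Itga8, an integrin of smooth muscle, 6.84 and 1.78 CPM. Parvb, an adaptor of integrin-linked kinase, was lower, with 2.41 and 10.8 CPM.

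Signals of the vessel wall were split by pathway. Of 11 Notch pathway genes, 9 were higher at E11.5 and 2 past 2-fold, with 1 past 2-fold lower and a median log2 ratio of 0.61, against -0.43 in the other barcodes. The ligand Jag1 had 136 CPM at E11.5 and 45.2 at E10.5 (log2 1.59, 1.39 to 1.78), the receptor Notch3 62.5 and 41.0 CPM, and the nuclear targets Heyl 113 and 57.1 CPM and Hey2 49.7 and 20.7 CPM. Hey1, of the same target family, was lower at E11.5, with 34.0 and 82.0 CPM. In the other barcodes the ratios of Jag1, Heyl and Nrarp were 0.06, -0.65 and -1.44, and in the selected cells 1.59, 0.99 and 0.64. The difference between these ratios was not tested, since each rests on the same 2 libraries.

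Of 26 TGF-beta and BMP genes, 5 were past 2-fold higher and 2 lower, with a median log2 ratio of 0.08. Tgfb3, a ligand, had 42.8 CPM at E11.5 and 11.8 CPM at E10.5, and its receptor gene Tgfbr2 had 10.3 and 3.71 CPM. Ltbp3, which holds the latent ligand in the matrix, had 19.1 and 3.71 CPM. Bmp2 was lower, with 17.2 CPM in 18.5% of the cells at E11.5 and 124 CPM in 65.5% at E10.5, while its sister ligand Bmp4 was at 147 and 156 CPM. Among 5 PDGF genes all were higher and 1, the ligand Pdgfa, was past 2-fold, with 108 and 51.2 CPM. Of 10 hedgehog genes 2 were past 2-fold lower. The ligand Shh accounted for 1 of them with 1 UMI at E11.5 and 73 at E10.5, of which 4 cells held 93.2%, and the inhibitor Hhip for the other with 6.59 and 14.7 CPM.

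Retinoic acid genes gave 5 of 11 past 2-fold higher and 1 lower. Crabp1, a cytoplasmic retinoic acid binding protein, had 584 and 191 CPM, Aldh1a2, the enzyme that makes most embryonic retinoic acid, 109 and 33.2 CPM, and Dhrs3, a retinaldehyde reductase, 83.7 and 20.8 CPM. Aldh1a2 was patchy, in 24.8% of the E11.5 cells and 18.6% of the E10.5 cells, and the 42 and 31 highest cells held 83.0% and 84.0% of its UMIs. In red cells 13.1% held an Aldh1a2 UMI in either library, against these shares in the selected cells.

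Receptors and channels through which contraction is set were higher in 19 of 22 cases, 8 past 2-fold and none lower past it, with a median log2 ratio of 0.76, against 0.31 in the other barcodes. They included the endothelin receptor Ednra (46.4 CPM at E11.5, 20.3 at E10.5) and the vasopressin receptor Avpr1a (15.6 and 3.23 CPM). The prostacyclin synthase Ptgis had 72.2 and 27.1 CPM, the muscarinic receptor Chrm3 13.8 and 5.49 CPM, the ryanodine receptor Ryr3 16.98 and 4.196 CPM, and the cGMP-dependent kinase Prkg1 46.9 and 22.8 CPM. The serotonin receptors Htr2a and Htr2b had no UMI in either library.

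**Figure D3:**
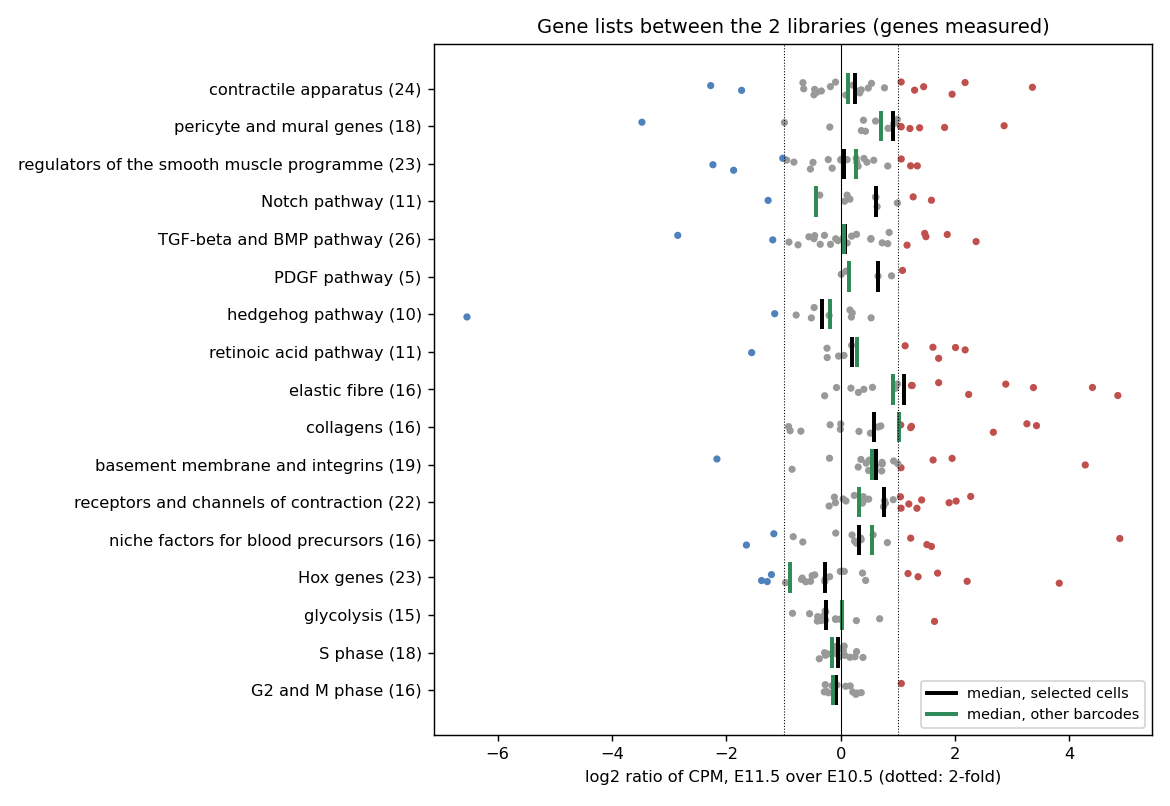
Log2 ratio of CPM, E11.5 over E10.5 (x axis), of each measured gene (point) of 17 lists in the selected cells, with the list median in the selected cells (black) and in the other kept barcodes (green). Red and blue points lie past 2-fold and Hoxc10, with no UMI at E10.5, is drawn at its bound. The elastic fibre list has its median at 1.11 and the Hox list at -0.27.

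Transcription factors of the smooth muscle programme showed no common direction, with 3 of 23 past 2-fold higher, 3 lower and a median log2 ratio of 0.06. Myocd, myocardin, had 36.9 CPM (35.6% of cells) at E11.5 and 15.8 CPM (22.1%) at E10.5, a log2 ratio of 1.22 (0.89 to 1.57). Its partner Srf had 33.8 and 48.9 CPM and the related coactivator gene Mkl2 29.7 CPM at both stages. Tbx18, a T-box factor of epicardial and ureteral mesenchyme, had 46.5 CPM at E11.5 and 18.4 CPM at E10.5, and Tcf21 33.6 and 16.1 CPM. Foxf1, a factor of gut mesenchyme, had 5.07 and 23.9 CPM, and Tbx20 10.52 and 38.6 CPM.

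Markers of other cell types differed between the libraries beside these lists. The 7 sclerotome markers summed to 229 CPM at E11.5 and 481 CPM at E10.5, and of the 6 measured 4 were past 2-fold lower. The visceral mesenchyme markers summed to 80.9 and 120 CPM. The hepatoblast markers summed to 91.1 and 364 CPM, and 4 cells held 96.2% of the Afp UMIs at E10.5. Without the 78 cells at E11.5 and 12 at E10.5 that held at least 3 UMIs over a set of blood, liver, endothelial and epithelial markers, the hepatoblast sum was 72.7 and 27.3 CPM. The hepatic stellate markers summed to 170 and 350 CPM, nearly all of it Nes, and the blood markers to 63.4 and 36.6 CPM, or 26.9 and 4.34 CPM without the same cells. Their part in the results was not tested.

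Genes that mark where mesoderm came from were lower more often than higher, with 6 of 16 past 2-fold lower, 4 higher and a median log2 ratio of -0.82, against -0.61 in the other barcodes. The somite genes Pax1 and Meox1 had 9.89 and 11.2 CPM at E11.5 and 37.9 and 50.03 CPM at E10.5. Hand1 had 9 UMIs at E11.5 and 102 at E10.5. Wt1 had 54.2 and 20.8 CPM and was in 30.05% and 16.3% of cells, against 13.9% and 13.5% of red cells. Hox genes, which record position along the body axis, had a median log2 ratio of -0.27 over 23 measured, with 5 past 2-fold higher and 3 lower. Hoxc8, Hoxc9 and Hoxa9 were higher at E11.5 (155, 34.3 and 18.1 CPM against 68.6, 7.42 and 7.10 CPM), and Hoxa2 and Hoxb5 were lower (9.89 and 20.9 CPM against 22.9 and 51.0 CPM). Hoxc10 had 54 UMIs in 22 cells at E11.5 and none at E10.5, at least 14.1-fold higher when 3 counts are set as the limit over the E10.5 cells. Hoxb9 had 24.0 CPM at E11.5 and 46.8 CPM at E10.5. The other barcodes had Hoxc9 and Hoxa9 higher and Hoxa2 and Hoxb5 lower too.

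Of 16 niche factors for blood precursors, 4 were past 2-fold higher at E11.5 and 2 lower. Cxcl12, the chemokine that holds blood stem cells in their niche, had 727 CPM at E11.5 and 615 CPM at E10.5. Kitl, stem cell factor, was lower, with 11.2 CPM at E11.5 (13.7% of cells) and 35.02 CPM at E10.5 (27.7%), a log2 ratio of -1.65 (-2.02 to -1.29), where the other barcodes had 0.02. Igf1 had 61.0 and 21.5 CPM, Igf2 93.8 and 40.2 CPM, and Nov 75 UMIs at E11.5 and 2 at E10.5. Il6 had no UMI in either library and Thpo had 2 and 0.

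Genes of the cell cycle were close to level. None of 18 S phase genes was past 2-fold, and of 16 G2 and M phase genes 1 was, Mki67, with 249 CPM at E11.5 and 120 CPM at E10.5. The other barcodes had a like ratio for it (0.97). Of 15 glycolysis genes 12 were lower at E11.5 by less than 2-fold, among them Gapdh with 1439.6 and 2585 CPM, and 1, Pfkp, was past 2-fold higher. The immediate early genes, which cell dissociation can induce, had 5 of 16 past 2-fold higher, such as Fosb at 55.9 and 18.4 CPM, and 1 lower, Atf3, at 14.6 and 52.9 CPM, while Fos was 220 CPM in both.

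Among the 30 genes named by size, the 15 highest at E11.5 were Eln, Mgp, Efemp1, Epha3, Fbln5, Col8a1, Col12a1, Cbfa2t3, Sfrp2, Wisp1, Alcam, Dab2, Myh11, Lmna and Fam46a. Efemp1, a relative of the fibulins, had 70.5 CPM at E11.5 and 4.52 CPM at E10.5. Epha3, an ephrin receptor, had 50.7 and 3.23 CPM, and in the other barcodes 12.4 and 14.6 CPM, a ratio of -0.24. Sfrp2, a secreted Wnt modulator, had 211 and 38.1 CPM, and in the other barcodes 124 and 98.8 CPM. Lmna, which encodes lamin A, had 163 and 37.0 CPM, and a like ratio in the other barcodes (2.15 against 2.14 in the selected cells). The 15 lowest were Igdcc3, Dusp9, Gm13889, Tubb3, Bmp2, Phlda1, Afp, Car3, Lmo1, Actc1, Des, Gm47283, Cmtm8, Gng11 and Meox1. Phlda1 had 51.2 CPM at E11.5 and 320 CPM at E10.5. Dusp9, a phosphatase of MAP kinases, had 12.9 and 114 CPM. Gng11, a G protein subunit, had 96.7 and 382 CPM, where the other barcodes had 67.9 and 85.3 CPM. Afp, the fetal liver protein, had 327 UMIs spread over 215 cells at E11.5, whereas 4 cells held 96.2% of its 1566 UMIs at E10.5. Without the cells left out for mixed markers, 78 at E11.5 and 12 at E10.5, its log2 ratio was 1.53 in place of -2.61. Afp is itself among the markers by which cells were left out.

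Set against all other kept barcodes of the same library, the 25 genes named by size were higher in both stages. After Actg2 and Myh11 came Lmod1, a leiomodin that nucleates actin, with 75.4 against 1.60 CPM at E11.5 and 54.1 against 1.57 CPM at E10.5. Others belong to the contractile apparatus or its attachment: Nexn (133 against 8.01 CPM at E11.5, 93.9 against 8.23 CPM at E10.5), Myl9, Pdlim5, Itga1 and the small heat shock gene Hspb1 (364 against 28.7 CPM, 254 against 20.04 CPM). Prdm6, a repressor found in smooth muscle precursors, had 110 against 9.60 CPM at E11.5 and 65.7 against 6.62 CPM at E10.5. Secreted or signalling genes were Igfbp7, Angpt2, Ctgf and Hbegf. Angpt2, an angiopoietin that loosens contacts of vessels, had 131 against 9.88 CPM at E11.5 and 54.7 against 5.18 CPM at E10.5. Trac, annotated as a T cell receptor constant segment, had 74.8 against 7.44 CPM and 72.6 against 5.17 CPM. The cells were chosen by genes of the same programme, so these ratios describe the selection.

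Barcodes that met the rule but held Cdh5, 14 at E11.5 and 18 at E10.5, had 247 and 25.1 CPM of Myh11 and 99.6 and 104 CPM of Pecam1. Barcodes with at least 2 Pdgfrb UMIs outside the selection, 982 and 614 in number, had 11.535 and 3.40 CPM of Myh11. Their Pdgfrb, at 163 and 108 CPM, was set by the grouping itself. Their Rgs5 was 120 CPM at E11.5 and 48.4 CPM at E10.5, under that of the selected cells. Barcodes with at least 2 UMIs of Foxf1 and Barx1 outside the selection, 395 and 1142 in number, had 2.37 and 0.256 CPM of Myh11. The selected cells were left out of these groups with Pdgfrb or with Foxf1 and Barx1, which by itself lowers Myh11 there. The 3 barcodes at E11.5 and 10 at E10.5 that met the rule but held a muscle regulatory factor had 2562 and 3892 CPM of Actc1, and those of E10.5 had 2804 CPM of the fast light chain gene Mylpf, against 12.6 CPM in the selected cells.

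**Figure D4:**
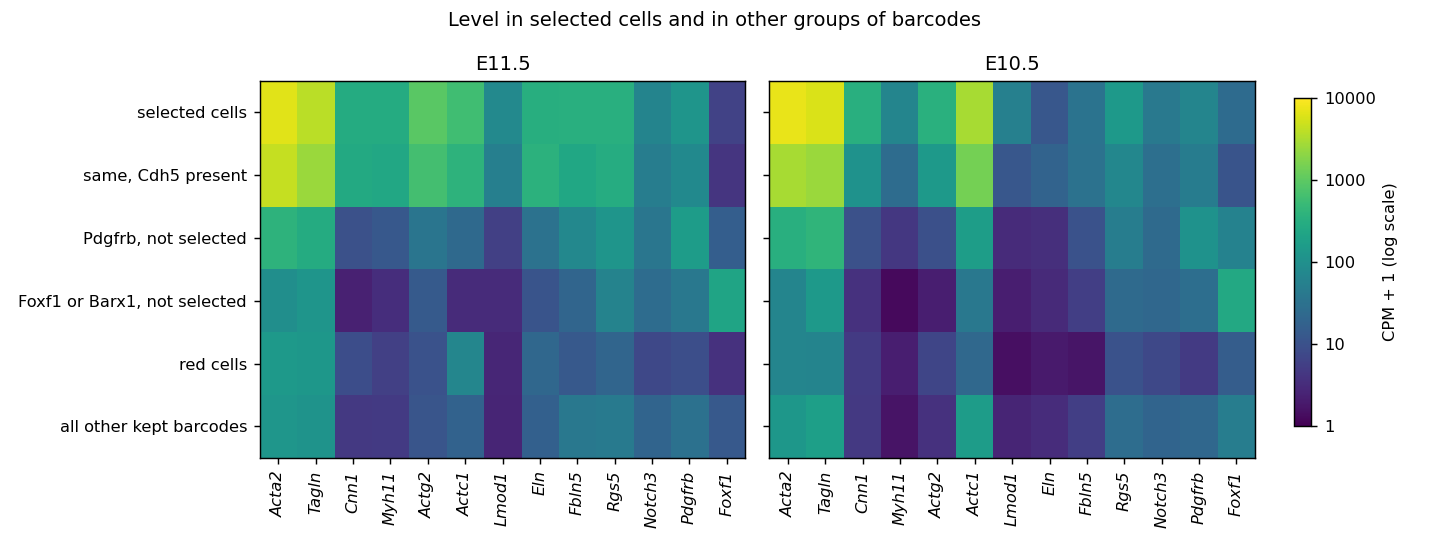
Level (CPM plus 1, colour on a log scale) of 13 genes (x axis) in the selected cells and 5 other groups of barcodes (y axis), E11.5 left of E10.5. Myh11 was 289 CPM in the selected cells at E11.5 and 64.1 CPM at E10.5, and 11.535 and 3.40 CPM in unselected barcodes with Pdgfrb.

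Within the selection the cells were grouped by simple counts. Cells with no Foxf1 or Barx1 and at least 2 UMIs over Rgs5, Notch3, Kcnj8 and Abcc9, called mural here, were 308 at E11.5 (74.0%, 69.5 to 78.2) and 159 at E10.5 (51.8%, 46.0 to 57.5). Thinned to 5000 UMIs these shares were 48.5% and 22.6%. Cells with at least 1 UMI of Foxf1 or Barx1, called visceral, were 29 (6.97%) and 53 (17.3%), and after thinning 3.69% and 6.98%. At least 2 UMIs left 8 cells at E11.5 and 36 at E10.5. The name follows the count alone, and visceral cells could hold mural UMIs too. Their Rgs5 was 179 CPM at E11.5 and 71.6 CPM at E10.5. Mural cells had 422 and 219 CPM of it, and the other kept barcodes 43.2 and 26.3 CPM. Cells with 3 or more UMIs over Myl7, Nkx2-5 and Tnnt2 numbered 3 and 5, and 76 and 90 fell in no group.

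The mural cells were set against the cells in no group at each stage. Genes of the grouping aside, Nrarp, a Notch target, had 83.6 against 13.1 CPM at E11.5 and 52.9 against 32.6 CPM at E10.5. Angpt2 had 161 against 29.7 CPM and 68.6 against 43.2 CPM, and Postn, the matrix protein periostin, 145 against 84.1 CPM and 155 against 83.8 CPM. Twist1, a factor of undifferentiated mesenchyme, was lower in mural cells, with 120 against 190 CPM at E11.5 and 178 against 253 CPM at E10.5, as were Plpp3, Foxd1, Ptx3 and Hoxa5. Other genes had unlike ratios in the 2 libraries, and the difference between those ratios was not tested. Myh11 had 345 against 86.3 CPM at E11.5 and 67.7 against 67.8 CPM at E10.5. Eln had 393 against 63.8 CPM at E11.5 and 6.04 against 13.3 CPM at E10.5, Col4a1 769 against 224 CPM and 413 against 408 CPM, and Heyl 136 against 31.9 CPM and 59.2 against 49.2 CPM. Wt1 was lower in mural cells at E11.5, with 39.6 against 127 CPM, and had 21.2 against 15.95 CPM at E10.5. Within the mural cells alone, 561 of 10008 measured genes were past 2-fold higher at E11.5 and 235 lower. In all selected cells these were 580 and 280 of 10796.

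Visceral cells set against mural cells had more Plpp3, Twist1, Plagl1 and Ptn in both libraries. Ptn, the growth factor pleiotrophin, had 1405 against 440 CPM at E11.5 and 215 against 155 CPM at E10.5. They had less Bmp4 (73.6 against 143 CPM at E11.5, 96.0 against 177 CPM at E10.5), Mef2c, Hbegf, Ebf1, Postn and Angpt2. Actc1 was 107 against 701 CPM at E11.5 and 2620 against 2848 CPM at E10.5.

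The cells also differed in contractile level. Each was scored by its Myh11 and Actg2 UMIs per 10000, and the 138 highest and 138 lowest cells at E11.5, with median scores of 23.9 and 0.799, were compared, as were the 102 highest and 102 lowest at E10.5, with medians of 6.996 and 0. At E10.5 96 of the low cells had a score of 0, and 139 cells lay within 0.5 of the lower limit, so which of them counted as low was partly arbitrary. Actc1 followed the score in both libraries, with 1533 CPM in high against 37.5 CPM in low cells at E11.5 (log2 5.35) and 4934 against 1390 CPM at E10.5 (log2 1.83). Acta1, Hspb1, Cryab, Adarb1, Itga1, Igfbp7 and Anxa1 did the same. The Notch ligand Jag1 had 209 against 64.7 CPM at E11.5 and 70.0 against 21.5 CPM at E10.5, and the PDGF ligand Pdgfa 169 against 50.4 CPM and 72.0 against 24.0 CPM. Myocd was 65.8 against 11.6 CPM at E11.5 and 19.9 against 10.493 CPM at E10.5. Eln was 567 against 88.6 CPM and 16.4 against 6.00 CPM, and Col4a1 1081 against 258 CPM and 543 against 259 CPM.

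Among the genes named by size as lower in high cells, Hoxc8 had 68.7 CPM in high against 252 CPM in low cells at E11.5 and 33.2 against 121 CPM at E10.5. Pdgfra, the PDGF receptor of fibroblasts, had 24.3 against 87.2 CPM and 37.2 against 75.4 CPM. Ptn, Sfrp1, Igfbp5, Dcn, Pkdcc and Sox9 were lower in high cells as well. All 16 genes of the G2 and M phase list were lower in high cells in both libraries, with median log2 ratios of -0.80 at E11.5 and -0.60 at E10.5. Of 18 S phase genes, 18 were lower at E11.5 (median -0.36) and 13 at E10.5 (median -0.18). Over all genes measured in the same groups, 60.1% of 8793 were lower at E11.5 (median -0.09) and 57.3% of 7821 at E10.5 (median -0.05). Top2a was at 359 against 630 CPM at E11.5 and 315 against 459 CPM at E10.5, and Ube2c at 375 against 599 CPM and 436 against 701 CPM. Kitl was 4.52 against 16.3 CPM at E11.5 and 18.9 against 48.5 CPM at E10.5. Tbx18 had ratios of opposite sign in the 2 libraries, with 60.8 against 30.7 CPM at E11.5 and 11.4 against 37.97 CPM at E10.5.

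**Figure D5:**
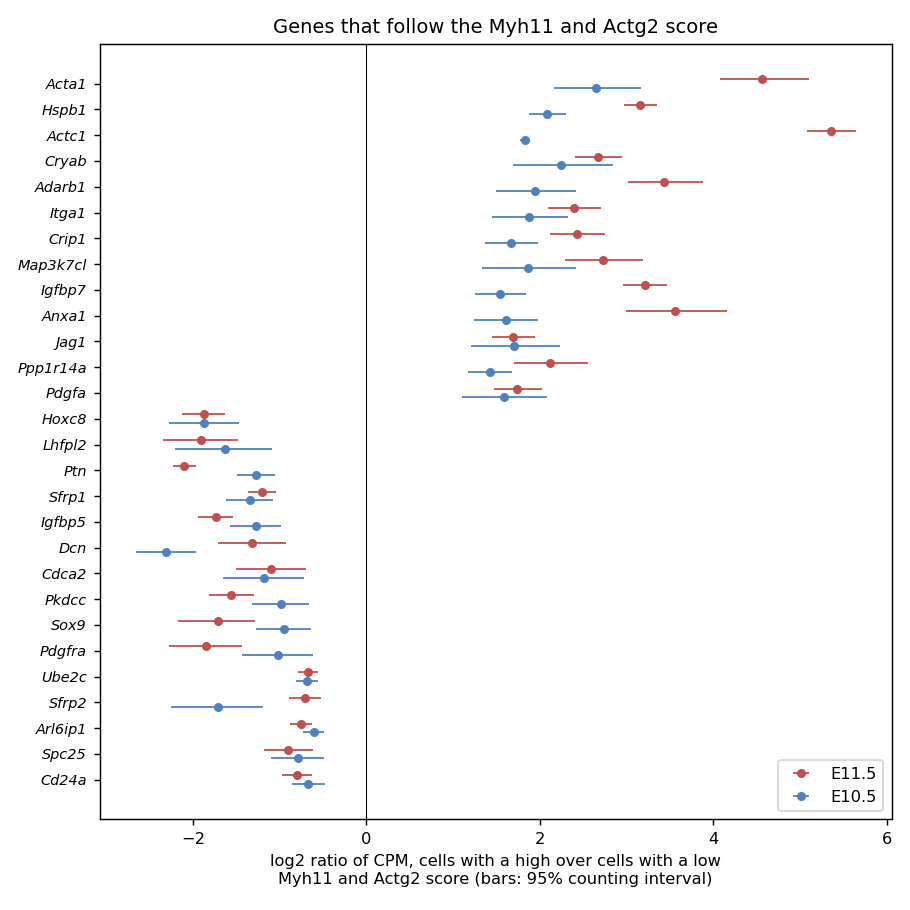
Log2 ratio of CPM (x axis, with 95% counting intervals) between cells with a high and cells with a low score of Myh11 and Actg2, for the genes (y axis) named by size in both libraries, E11.5 drawn above E10.5. Actc1 had 5.35 at E11.5 and 1.83 at E10.5, and Hoxc8 -1.87 in both.

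As a last description, each of 3559 genes was correlated with the score across thinned cells, 406 at E11.5 and 301 at E10.5. The cells of a library share its handling and free RNA, so no p-value is given. Outside the selection genes, Actc1 was most alike with Spearman coefficients of 0.56 at E11.5 and 0.47 at E10.5. Tmsb4x (0.46 and 0.43), Hspb1 (0.52 and 0.43), Myl9 (0.42 and 0.43) and Dstn, an actin depolymerising factor (0.43 and 0.38), came next, followed by Vim, Myl6, Igfbp7, S100a11 and Tpm2. Opposite coefficients were found for Twist1 (-0.22 and -0.21), Sfrp1 (-0.28 and -0.20), and the chromatin genes H2afz (-0.32 and -0.18) and Hmgb1 (-0.34 and -0.18).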

How the data were processed

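Each of 2 libraries came with UMI counts per gene and barcode that the authors deposited, made with Cell Ranger 5.0.0 on mm10/GRCm38, per the submitters' processing notes. The deposited counts are raw, and 30934 of 31053 gene identifiers matched GENCODE M21. Members and gene lists were chosen with earlier results of these data known, and the grouping by Myh11 and Actg2 was chosen after seeing the cells. UMIs were summed over cells and given as CPM, leaving haemoglobin and mitochondrial genes out of the total (7889663 UMIs at E11.5, 6195905 at E10.5), with exact 95% Poisson intervals for levels, exact conditional ones for ratios and Clopper-Pearson ones for shares. All cover counting error only. A count of 0 was read as at most 3 counts. Genes at 50 CPM or more were named by the bound of the ratio nearest to 0: 15 each way between stages and between score groups, 25 against other barcodes and 10 each way between subgroups, besides members of the lists. Red cells held at least 10% haemoglobin UMIs. The interval and fold calculations were tested on simulated Poisson counts. These hold no spread between cells or libraries, so the test says nothing of such spread. Python 3.11.15, numpy 2.4.6, scipy 1.17.1, pandas 2.3.3 and matplotlib 3.10.9 were used. Alternatives changed depth, thresholds, doublet handling, scaling and filters. Leaving out mixed barcodes and keeping mural cells alone were added after seeing the data. Not every member of the lists is reported here.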

Additional observations from a re-analysis of the deposited data

Results flagged for a closer look

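Among the genes of the lists and those named by size between stages, 7 were past 2-fold in opposite directions in the selected cells and in the other kept barcodes. Genes with opposite signs but a smaller ratio on either side are not counted here. The difference was not tested, since each ratio rests on the same 2 libraries. The percentages below are the part of the E10.5 UMIs of the selected cells held by the 4 cells with the most. Afp had -2.61 in selected cells and 2.67 in other barcodes, with 96.2% in 4 cells. Ttr had -2.20 and 2.58, with 94.8%. Serpina1a had -2.59 and 2.29, with 95.8%. Apoa2 had -1.33 and 2.64, with 87.9%. Trf had -1.30 and 2.72, with 73.0%. These 5 genes are made by hepatoblasts. Reln, which encodes reelin, had -1.35 and 1.63, with 65.8% of 38 UMIs in 4 cells. Aldh1a3, a retinaldehyde dehydrogenase, had -1.56 and 1.06, and 4 cells held 27.1% of its 155 UMIs.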

How the results depend on the processing

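The share of selected cells was 1.17 times as high at E11.5 and stayed between 1.09 and 1.24 under 7 alternatives. In the main setting, 580 of 10796 measured genes were past 2-fold higher and 280 lower. Thinned to 5000 UMIs, these were 357 and 136 of 7456. With at least 200 UMIs in both libraries together they were 255 and 112 of 7612, and with at least 20 UMIs 821 and 424 of 12267. The contractile median was 0.044 thinned, 0.089 with at least 200 UMIs and 0.39 in mural cells alone. The collagen median was 0.72 with Acta2 and Tagln at 10 per 10000 UMIs and 0.80 in mural cells alone. The ratio of mural shares was 2.15 thinned, against 1.43. That of visceral shares was 0.164 with at least 2 UMIs of Foxf1 and Barx1, against 0.404. Afp had a log2 ratio of 1.59 without possible doublets and 1.53 without mixed barcodes. Fewer genes and UMIs enter the thinned and 200-UMI settings by construction. For the other settings the cause was not tested. No paired analysis was possible because each stage has 1 library, so no replicate could be left out either. Depth limits shares of cells with a UMI and genes near 3 counts.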
